A study of Gallus gallus with 71 samples.

Results

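The paraventricular nucleus (PVN) of embryonic heat conditioned (EHC) broiler chicks was compared with the PVN of control chicks at hour 12 of an acute heat challenge. The comparison took every library whose labels name the PVN and hour 12, which gave 7 of the 71 libraries of the series, 3 from EHC chicks and 4 from control chicks. Eggs of the EHC group were kept at 39.5 °C for 12 h a day from embryonic day 7 to 16 and otherwise at 37.5 °C, the temperature of control eggs. Both groups were then held and heat challenged in the same way, at 36 °C on day 4 after hatch, so control chicks at hour 12 were heat challenged too. EHC replicates 1 and 2 and control replicates 1 and 2 were male, and EHC replicate 3 and control replicates 3 and 4 were female. Libraries were made from total RNA of punch biopsies, and the labels call them biological replicates without saying which chick each came from. Each treatment had its own incubator, hatching trays and cages, so treatment and housing cannot be told apart.

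The PVN is the hypothalamic nucleus whose neurons release corticotropin-releasing hormone, thyrotropin-releasing hormone and, in birds, mesotocin and vasotocin, and it sits at the head of the endocrine stress axis. Heat, feeding and stress signals converge on it. EHC, a period of raised incubation temperature, is used to change how chicks respond to heat after hatch. Genes in the deposited counts carry Ensembl IDs alone, and a symbol was known for 93 of the 20363 genes tested. None of the genes fixed as markers of PVN neuroendocrine cells, such as CRH, TRH, OXT and AVP, was among the 93, so the labelled tissue could not be checked against them.

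The EHC libraries held 4420293, 4801048 and 5374199 counts, and the control libraries held 4157783, 4829014, 1739986 and 7219945. The ranges overlapped and the totals did not differ beyond the spread (two-sided exact permutation test, p = 0.743). A single count was worth 0.575 CPM (a count scaled to library size) in the shallowest library, control replicate 3, and 0.139 CPM in the deepest, control replicate 4. All 7 libraries fell on the side of their labelled sex in 69 female-limited genes, whose summed level was 2056 to 2279 CPM in the 3 female libraries and 13.1 to 49.6 CPM in the 4 male libraries. These genes were picked from this same series by labelled sex (log2 difference of at least 3), so the check is not independent of the labels.

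At an adjusted p of at most 0.1, 52 of 20363 genes differed between EHC and control PVN at hour 12, or 0.255% of those tested, with 19 higher in EHC (0.0933%) and 33 lower in EHC (0.162%). Log2 fold changes were below 0 in 50.3% of all genes tested. ND6, a complex I subunit encoded by the mitochondrial genome, was the only called gene with a symbol, and it was lower in EHC. Among the other 51, 28 of the lower genes were correlated with each other over the 64 other libraries (median r of 0.846, lowest 0.504). The 19 higher genes were correlated less closely (median r of 0.553, lowest -0.118). All 33 lower genes and 18 of the 19 higher genes had CPM ranges that did not overlap between groups. Over all genes tested the ranges did not overlap in 6.37% with EHC higher and in 4.5% with EHC lower. The 52 were called on these same 7 libraries, so their separation follows from the choice and is no further evidence. DESeq2 called 223 genes, 82 higher and 141 lower, among them 50 of the 52, and limma-voom called 59, also with 50 of the 52. The study itself reports no differentially expressed genes in the PVN at hour 12. Its methods require an adjusted p of at most 0.1 in both edgeR and DESeq2 and an absolute log2 fold change over 1. A similar rule gave 46 genes here, and the reason for this disagreement was not tested.

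**Figure D1:**
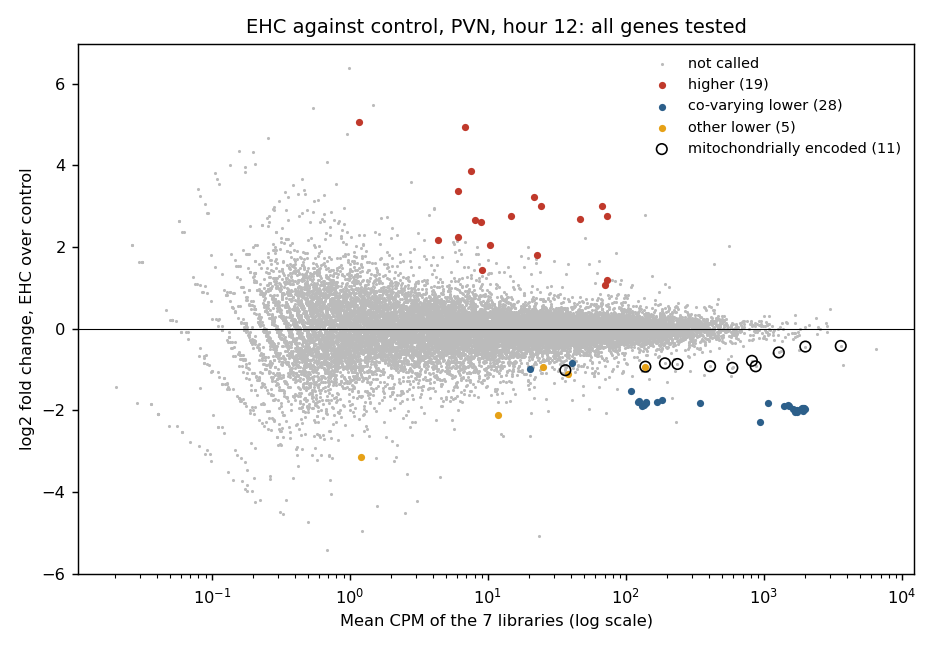
Log2 fold change of EHC over control (vertical axis) against mean CPM of the 7 libraries (horizontal axis, log scale) for each gene tested in the PVN at hour 12. Colored points are the 52 called genes in 3 sets, and open circles are the 11 mitochondrially encoded mRNAs, all of which lie below 0.

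These calls rested on few libraries. Without EHC replicate 1, 2 or 3 the count of calls was 14, 14 or 11, of which 14, 13 and 11 were among the 52, and without any 1 control replicate it was 47 to 73. No called gene changed direction when a library was left out. With all 23 PVN libraries in 1 model, which estimates the spread from all 6 groups of that nucleus, no gene was called (edgeR; smallest adjusted p = 0.104 and 1242 genes at an unadjusted p under 0.05), although all 52 kept their direction. The median standard error of the 52 log2 fold changes was 0.712 in that model and 0.256 in the fit of the 7 libraries. With all 23 libraries of hour 12 in 1 model, 2 genes were called, both higher in EHC and both among the 52.

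Mitochondrially encoded mRNAs were a list fixed with earlier results of these data known, and they hold the 1 named call. The mitochondrial genome encodes 13 subunits of the respiratory chain and ATP synthase, of which 11 could be matched here. ND6, encoded from 14962 to 15483 of the mitochondrial genome (GRCg7b, RefSeq), is the only mRNA of the light strand in vertebrates. It had 89.8, 89.5 and 90.9 CPM in EHC PVN, against 168, 138, 168 and 225 CPM in control PVN. The EHC libraries were almost equal and every control library lay above them. ND6 fell by 0.93 on the log2 scale (SE 0.15, adjusted p = 0.084 from edgeR), a 1.90-fold difference.

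The other 10 mitochondrially encoded mRNAs had log2 fold changes of -1.01 (ATP8) to -0.42 (COX1), and none passed the adjusted test. Each had an unadjusted p under 0.05 in edgeR. By that measure 5.34% of all genes were lower in EHC. The 11 are encoded by the same genome and were measured in the same libraries, so they do not count as 11 separate results. The median of the 11 was -0.86, against -0.0026 over all genes tested. ATP8 and ATP6 encode subunits of ATP synthase and share a few bases, so their reads are partly uncertain. ATP8 had 22.3, 21.4 and 25.8 CPM in EHC, against 49.6, 40.0, 33.2 and 62.7 CPM in control, a 2.02-fold difference (log2 fold change -1.01, SE 0.22, adjusted p = 0.21 from edgeR). ATP6 averaged 388.8 ± 11.5 CPM in EHC and 741.8 ± 201 CPM in control (SD, n = 3 and 4; log2 fold change -0.96, SE 0.21). For both genes the lowest control value, control replicate 3, was still above the highest EHC value.

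Among subunits of complex I, the proton-pumping NADH dehydrogenase, ND1 averaged 591 ± 56.0 CPM in EHC and 1082 ± 305 CPM in control (SD, n = 3 and 4). ND2 averaged 163 ± 18.6 and ND4 270 ± 23.9 CPM in EHC, against 291 ± 84.0 and 510 ± 185 CPM in control. The log2 fold changes of these 3 genes were -0.92, -0.86 and -0.92, and those of ND3 and ND5 were -0.85 and -0.58. In each the 2 groups did not overlap, and the spread was wider among control libraries. CYTB, the catalytic core of complex III, had 687, 575 and 513 CPM in EHC, against 1054, 892, 694 and 1319 CPM in control. COX1 and COX2, core subunits of complex IV, gave the smallest differences. COX1 had 3588, 3258 and 2452 CPM in EHC, against 4399, 3405, 3554 and 4580 CPM in control, and was the only one of the 11 whose groups overlapped. COX2 averaged 1716 ± 300 CPM in EHC and 2207 ± 262 CPM in control (SD, n = 3 and 4; log2 fold change -0.44, SE 0.13).

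**Figure D2:**
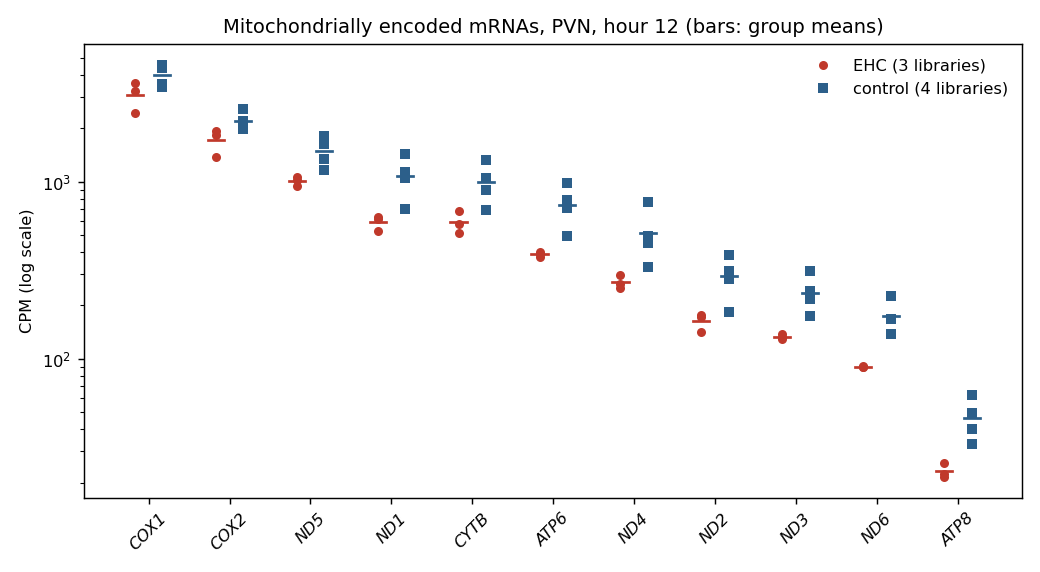
CPM (log scale) of the 11 mitochondrially encoded mRNAs in each PVN library of hour 12, EHC as circles and control as squares, with short bars at the group means. The 3 EHC libraries lie below all 4 control libraries for 10 of the 11 genes, COX1 being the exception. Over all genes tested 4.5% were separated in that direction, but the 11 genes are not independent measurements.

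Summed over the 11 genes, mitochondrially encoded mRNAs reached 6888 to 9012 CPM in EHC and 9555 to 14070 CPM in control, or 0.697% to 0.932% and 0.961% to 1.37% of counted reads. Of the 64 other libraries of the series, 19 lay at or below the highest of these EHC levels, 12 of them from control chicks. In bulk tissue, fewer cells of a type and less RNA per cell cannot be told apart. The ND6 call was lost without EHC replicate 1, 2 or 3 (adjusted p = 0.336, 0.347 and 0.855 from edgeR), without control replicate 1 (0.193), with no filter on low counts (0.102) and in males only (0.356). Without control replicate 3, the shallowest library, 7 of the 11 were called, and DESeq2, with all libraries, called 9 of the 11.

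The 28 co-varying lower genes had no symbol. They were picked out after their values were seen, as the largest group among the 33 lower genes when genes were clustered by how they varied within groups over the 64 other libraries, and they are therefore described and not tested as a set. The median correlation between 2 of the 28 was 0.846 over those 64 libraries, which share chicks and hours, and the lowest was 0.504. A subset of 16 had a median of 0.999. Near-identical copies can share reads or lose them to the filter for reads with 1 match. Whether these genes are such copies was not tested, and the 28 calls are uncertain as separate measurements. The 26 members from ENSGALG00010003258 to ENSGALG00010003646 carry IDs from a stretch that holds 227 of the genes tested.

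The 28 genes together reached 7867, 10230 and 13300 CPM in EHC PVN, against 42170, 31950, 30220 and 60920 CPM in control PVN. The lowest control library was 2.27 times the highest EHC library. The subset of 16 averaged 1433 to 2948 CPM a gene in control PVN, so it made up most of this level. In raw counts the set took 0.813% to 1.35% of an EHC library and 3.04% to 5.94% of a control library. The log2 fold changes of the 28 ran from -2.29 to -0.84, with a median of -1.88. ENSGALG00010003258 had 50.6, 53.2 and 68.6 CPM in EHC, against 204.5, 173.9, 229 and 203 CPM in control (log2 fold change -1.80, SE 0.12, adjusted p = 0.0014 from edgeR). ENSGALG00010003420 followed it closely, at 62.0, 63.7 and 81.1 CPM in EHC, against 248, 206, 276 and 239 CPM in control. Both genes, which lie outside the subset of 16, were low in the 3 EHC libraries and even among the 4 control libraries.

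The level of this set varied widely outside the comparison. Over the 64 other libraries it ran from 4584 to 200600 CPM, and 12 of them, 4 from control chicks, lay at or below the highest EHC PVN library of hour 12. In the POAH at hour 2 it was 30040 to 88250 CPM in EHC and 11900 to 21230 CPM in control. These ranges did not overlap and were opposite in direction to the PVN at hour 12. The study's own table for the POAH at hour 2 lists a member of the set, ENSGALG00010003368, as higher in EHC. In the nCPa at hour 2 the groups overlapped, at 30690 to 65730 CPM in EHC and 7779 to 32710 CPM in control. When the 28 genes were left out before normalization, a choice made after seeing the data, 18 genes were called, 17 higher and 1 lower, all 18 among the 52, and ND6 was not called.

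The other 5 lower genes were ND6 and 4 genes known by ID alone. Their log2 fold changes ran from -3.13 to -0.93. Their summed level was 130 to 143 CPM in EHC and 239 to 314 CPM in control.

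The 19 higher genes had no symbol either. Their log2 fold changes ran from 1.07 to 5.07 with a median of 2.69, the highest belonging to a gene that averaged 0.0356 CPM in control, whose fitted value depends on the prior count. ENSGALG00010010515 had 51.7, 39.2 and 55.4 CPM in EHC PVN, against 5.03, 7.28, 5.72 and 5.83 CPM in control PVN, which is 8.003-fold higher in EHC (log2 fold change 3.00, SE 0.20, adjusted p = 0.0014 from edgeR). ENSGALG00010018362 had 19.5, 15.5 and 14.4 CPM in EHC, against 1.01, 1.01, 0.572 and 1.28 CPM in control (log2 fold change 3.86, SE 0.29, adjusted p = 0.0015 from edgeR). Both genes were high in all 3 EHC libraries, and the controls stayed close to each other.

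Together the 19 genes reached 686, 758 and 1136 CPM in EHC, against 165, 208, 208 and 216 CPM in control. The median correlation between 2 of the 19 was 0.553 over the 64 other libraries, so these calls also are not 19 independent measurements. High levels were not limited to EHC. Of the 64 other libraries, 4 reached the lowest EHC level. They were 2 EHC libraries of the nCPa, at 1371 CPM at hour 0 and 1306 CPM at hour 2, and 2 control libraries of hour 2, at 1379 CPM in the nCPa and 1005 CPM in the PVN. A further control PVN library of hour 2, replicate 4, lay only just below that level, at 686 CPM. In males alone, 2 against 2 libraries and an alternative added after seeing the data, 7 higher and 24 lower genes were called. Of these 31 genes, 27 were among the 52.

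**Figure D3:**
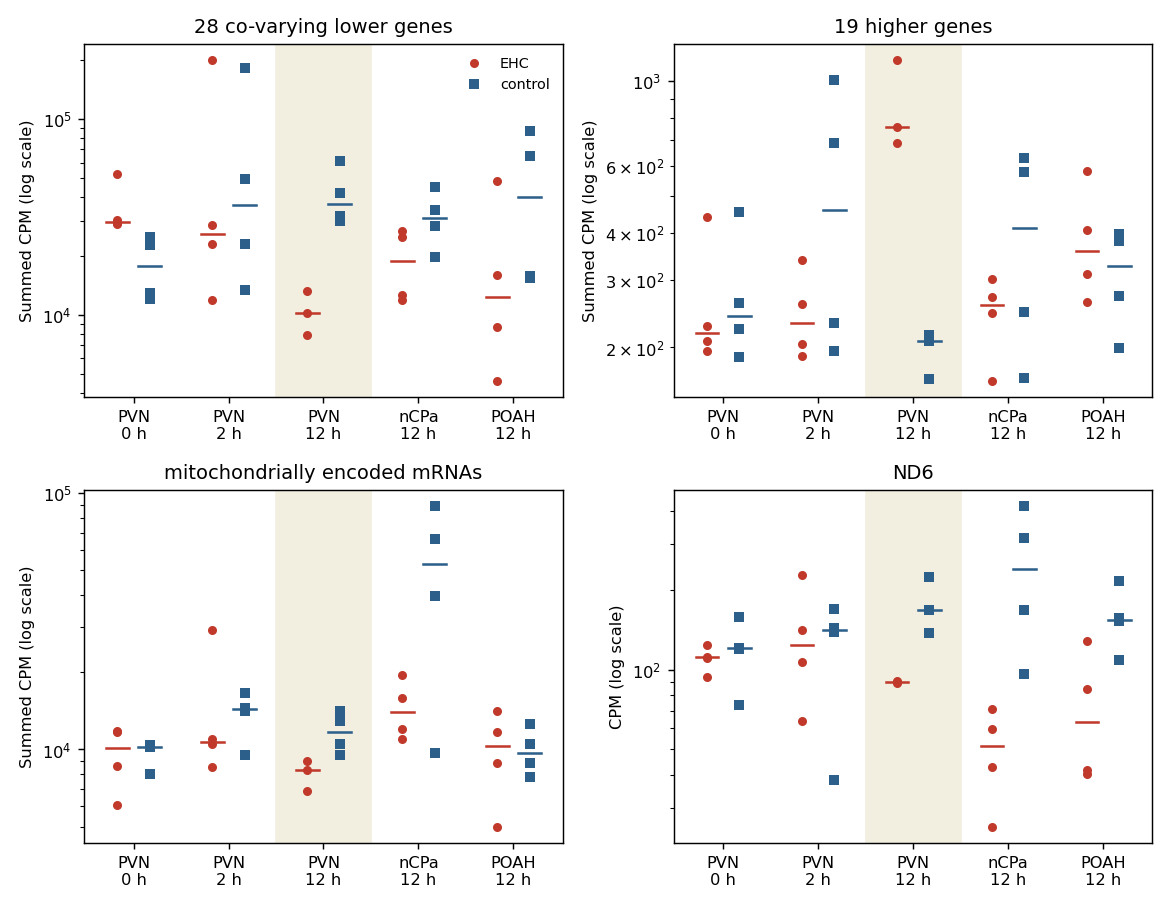
Levels per library (log scale) of 3 gene sets, summed, and of ND6 in EHC (circles, left of each pair) and control (squares) for the PVN at 0, 2 and 12 h and the nCPa and POAH at 12 h, with short bars at the medians and the PVN at 12 h shaded. The 19 higher genes lie between 686 and 1136 CPM in EHC PVN at 12 h and at or below 216 CPM in its controls, and libraries of other groups also reach high levels.

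The 93 genes with a symbol come from the study's own tables, which were chosen on these chicks and mostly in other nuclei, so their share of low p-values is no independent evidence. In the PVN at hour 12, 35 of them had a log2 fold change above 0 and 58 below 0. At an unadjusted p under 0.05 there were 6 higher and 19 lower, where 4.68% and 5.34% of all genes tested were higher and lower, and the 19 lower included the 11 mitochondrially encoded mRNAs.

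In the list of meningeal and connective tissue markers, 7 of 13 genes had an ID and none was called. SERPINF1 encodes a secreted anti-angiogenic factor and lies on chromosome 19 (5892301 to 5899172, GRCg7b, RefSeq). It had 22.8, 23.7 and 20.1 CPM in EHC PVN, against 9.56, 7.48, 11.4 and 11.7 CPM in control PVN. The groups did not overlap, and at a log2 fold change of 1.16 (SE 0.20) SERPINF1 missed the threshold in edgeR (adjusted p = 0.114) and passed it in DESeq2 (adjusted p = 0.011). TIMP2, an inhibitor of matrix metalloproteinases, had 142.2, 150.1 and 129.7 CPM in EHC, against 190.2, 205.3, 192.2 and 175.5 CPM in control (log2 fold change -0.48, SE 0.10, adjusted p = 0.21 from edgeR; 0.029 from DESeq2). Across the 7 markers the summed level was 182 to 215 CPM in EHC and 212 to 251 CPM in control, and 3 were above 0 and 4 below 0. TIMP2 made up most of this sum, at 129.7 to 150.1 CPM in EHC and 175.5 to 205.3 CPM in control, so the sum does not describe the markers as a group.

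Nuclear subunits and assembly factors of complex I had 9 of 47 members with an ID, none called, 2 above and 7 below 0. The median of their log2 fold changes was -0.24. NDUFS7, a core subunit of complex I, had 16.9, 15.9 and 9.93 CPM in EHC, against 22.1, 18.0, 24.6 and 31.4 CPM in control (log2 fold change -0.77, SE 0.27, adjusted p = 0.43 from edgeR). NDUFS5, an accessory subunit, overlapped between groups at -0.41 (SE 0.27). The 4 measured genes of mitochondrial DNA upkeep and mitochondrial function lay between -0.31 and -0.037, among them HIGD2A at -0.31. The mitochondrial chaperone HSPA9 had 113, 99.2 and 99.7 CPM in EHC, against 101, 99.9, 93.2 and 126.4 CPM in control, with no difference beyond the spread (log2 fold change -0.037, SE 0.14). DNAJC15, a mitochondrial cochaperone, was at -0.24 (SE 0.25).

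In the vacuolar proton pump, 4 of 17 members had an ID and 3 were above 0. ATP6V1H, a regulatory subunit, had 131, 114 and 114 CPM in EHC, against 87.0, 106, 94.4 and 91.3 CPM in control (log2 fold change 0.31, SE 0.12, adjusted p = 0.46 from edgeR), and ATP6V1D was at -0.12. SCG5, the chaperone of prohormone convertase 2 in peptide-secreting cells, had 336, 279 and 243 CPM in EHC, against 228, 219, 246 and 177.4 CPM in control (log2 fold change 0.34, SE 0.14, adjusted p = 0.49 from edgeR), with ranges that overlapped. VIPR1, a receptor for vasoactive intestinal peptide, had 14.9, 12.8 and 17.1 CPM in EHC, against 8.55, 21.4, 24.0 and 22.6 CPM in control, and the groups overlapped (log2 fold change -0.28, SE 0.29).

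Among RNA-binding and stress granule genes, 7 of 26 had an ID, 2 above and 5 below 0. UBAP2L, which takes part in stress granule assembly, had 59.1, 55.3 and 56.7 CPM in EHC, against 82.0, 71.6, 63.5 and 72.5 CPM in control (log2 fold change -0.38, SE 0.12, adjusted p = 0.37 from edgeR). LSM12 averaged 9.10 ± 1.44 CPM in EHC and 15.04 ± 2.49 CPM in control (SD, n = 3 and 4; log2 fold change -0.70, SE 0.21). CAPRIN2 overlapped widely, at -0.07 (SE 0.33). KPTN, a component of a lysosomal nutrient-sensing complex, had 3.72, 3.71 and 3.86 CPM in EHC, against 5.79, 4.85, 8.01 and 8.96 CPM in control (log2 fold change -0.80, SE 0.27, adjusted p = 0.41 from edgeR). In the ubiquitin and proteasome list, 4 of 33 genes had an ID, with PSMD3 at -0.36 and AREL1 at 0.13, and the 1 chromatin gene, BEND3, was at 0.21. GFI1B, the only erythroid marker with an ID, was at 1.31, 1.24 and 1.66 CPM in EHC and 0.755, 0.809, 2.29 and 0.569 CPM in control, near the level of a few counts.

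**Figure D4:**
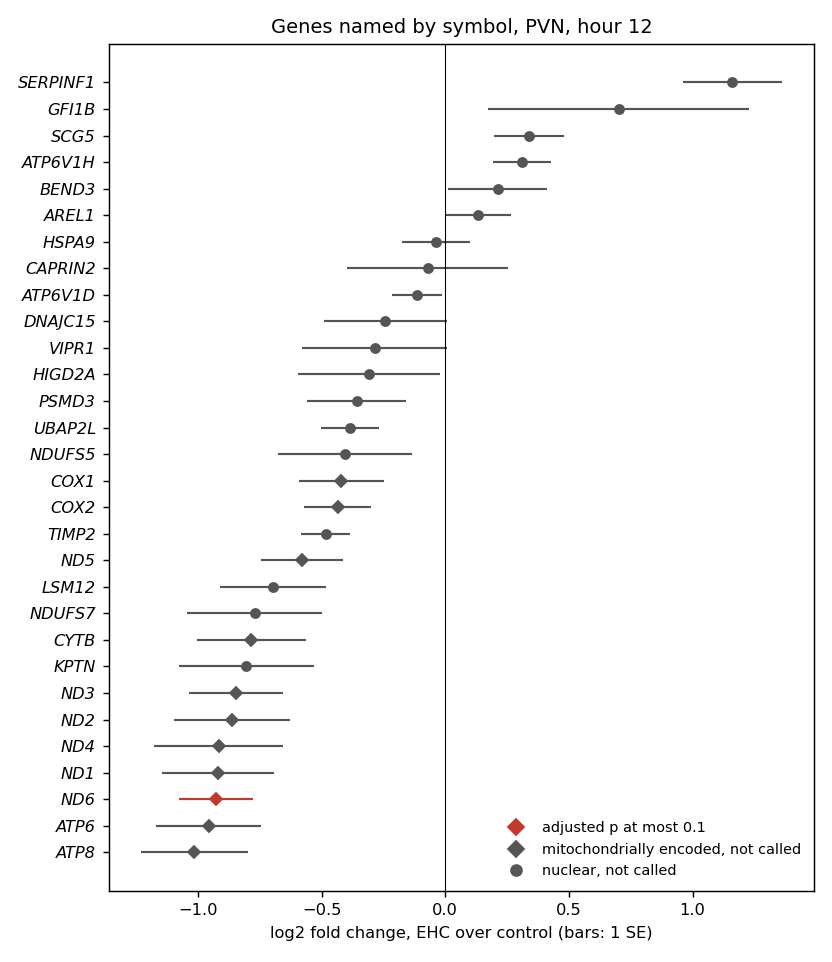
Log2 fold change of EHC over control (horizontal axis, bars of 1 SE) in the PVN at hour 12 for genes named by symbol, ordered by value. ND6, in color, was the only one called. The 11 mitochondrially encoded mRNAs, drawn as diamonds, lie between -1.01 and -0.42.

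Outside the rule for naming genes, and chosen after their values were seen, the remaining symbols at an unadjusted p under 0.05 were CSNK1A1 (casein kinase 1 alpha, log2 fold change 0.34), CERK (ceramide kinase, 0.52), ZFAND6 (0.30), MOGS (a glucosidase of N-glycan trimming, -0.80), TMEM132A (-0.44) and CNOT4 (-0.27). None passed the adjusted test in edgeR. Of the 17 pathway lists 7 had no member with an ID, among them hypothalamic peptides, immediate early genes, glucocorticoid-responsive genes and temperature-sensing channels. Of 16 marker lists 14 had none, so changes in neuronal, glial or vascular markers were not tested. Of the 11 genes from the RT-qPCR panel and the PVN table, the 7 without an ID were NPY, CRH, POMC, CCK, UCN3, TRH and HSP90AA1.

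The called genes were then followed through the other hours of the PVN and the other nuclei at hour 12. The aim was to see whether the same contrast gave the same values there. Before the challenge, at hour 0 in the PVN (4 libraries a group), edgeR called 0 genes (1060, or 5.21%, at an unadjusted p under 0.05; 25 called by DESeq2). There all 28 co-varying genes lay above 0 (median 0.97 on the log2 scale), and 26 of them had an unadjusted p under 0.05. Their summed level at hour 0 was 29270 to 52600 CPM in EHC and 12010 to 25050 CPM in control, without overlap and opposite in direction to hour 12. At hour 2 in the PVN, where edgeR again called 0 genes (1342, or 6.59%, at an unadjusted p under 0.05; 28 called by DESeq2), the set overlapped between groups at 11900 to 200600 CPM in EHC and 13390 to 183000 CPM in control.

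The 19 higher genes had a median log2 fold change of -0.23 at hour 0 and of -1.72 at hour 2. At hour 2 all 19 were below 0, and 12 of them had an unadjusted p under 0.05. Summed, they reached 260.5, 203.9, 190.5 and 338.7 CPM in EHC at hour 2, against 1005, 195.9, 231.7 and 686.3 CPM in control. The groups thus overlapped, and only control replicates 1 and 4 lay above every EHC library. These genes are correlated and do not count as 19 separate results. ND6 did not differ beyond the spread at either earlier hour, with log2 fold changes of -0.09 (SE 0.19) at hour 0 and 0.18 (SE 0.40) at hour 2. At hour 0 it had 111, 124.4, 93.7 and 112 CPM in EHC, against 120, 73.8, 158 and 121 CPM in control.

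**Figure D5:**
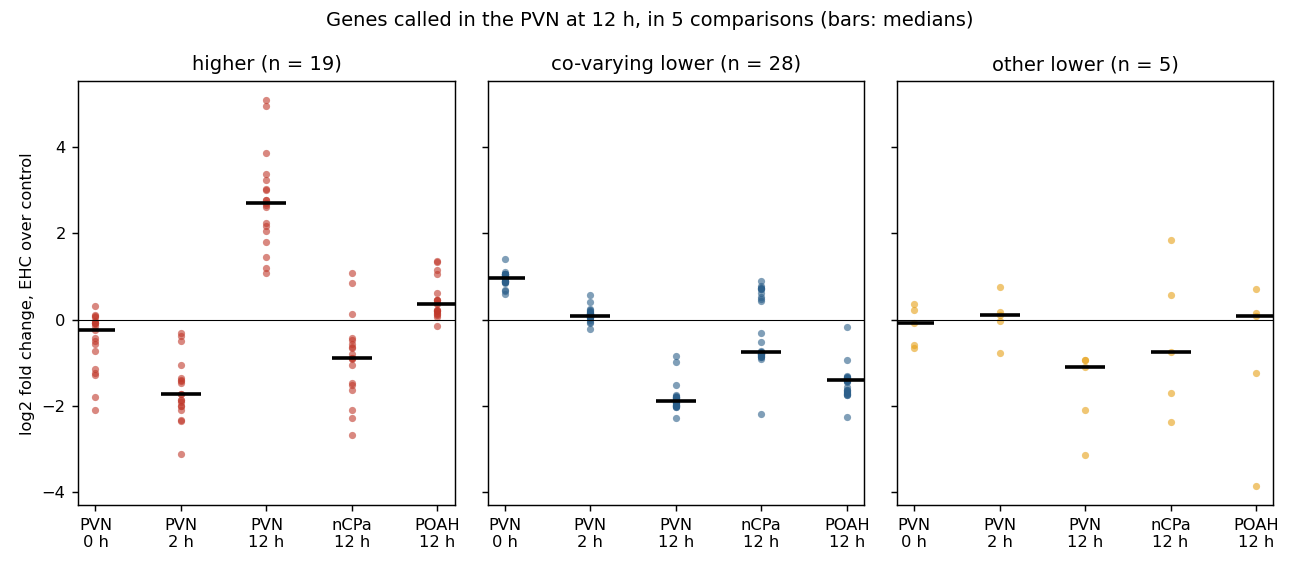
Log2 fold change of EHC over control (vertical axis) for the 52 genes called in the PVN at 12 h, in each of 5 comparisons, with black bars at the medians. The 28 co-varying genes have a median of 0.97 in the PVN at 0 h and -1.88 at 12 h, and the 19 higher genes one of -1.72 at 2 h and 2.69 at 12 h. At 2 h the summed level of the 19 genes overlapped between groups, and genes within these sets are correlated.

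The differences between hours were tested in 1 model of the 23 PVN libraries. Against hour 0, edgeR called 0 of 20363 genes (1681, or 8.26%, at an unadjusted p under 0.05; 54 called by DESeq2). Against hour 2 it called 1 gene (0.00491%), ENSGALG00010016851, one of the 19, which had 10.9, 16.1 and 19.7 CPM in EHC at hour 12, against 2.77, 2.43, 2.86 and 2.13 CPM in control, and that call was lost without any 1 of the 7 libraries of hour 12. All 28 co-varying genes had an unadjusted p under 0.05 for the difference from hour 0. For ND6 the difference from hour 0 was -0.90 (SE 0.51, adjusted p = 0.67 from edgeR). The hour 12 values enter both these tests and the choice of genes. The directions of the called genes in them, and small p-values, were therefore favored by that choice. The 28 genes are also correlated and do not count as 28 separate results.

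All 3 nuclei were punched from each bird, so libraries of the other nuclei can share chicks with those of the PVN. At hour 12 edgeR called 2 genes in the nCPa (0.00982%; 2256, or 11.1%, at an unadjusted p under 0.05; 336 called by DESeq2) and 0 in the POAH (1276, or 6.27%; 38 called by DESeq2), and none of the 52 was among them. ND6 had 42.9, 25.3, 71.2 and 59.5 CPM in EHC nCPa, against 96.5, 316, 168 and 417 CPM in control nCPa, and 84.8, 40.4, 41.8 and 128 CPM in EHC POAH, against 153, 109, 158 and 217 CPM in control POAH. Its log2 fold changes there were -2.38 (SE 0.41) and -1.24 (SE 0.25), with adjusted p = 0.17 and 0.79 from edgeR. The remaining mitochondrially encoded mRNAs were below 0 in the nCPa, where the median of the 11 was -2.29. In the POAH the median was 0.016. Summed over the 11, nCPa libraries had 9727, 66350, 39630 and 88650 CPM in control, against 19500, 12000, 15870 and 10950 CPM in EHC. Control replicate 1 thus lay below every EHC library, and the nCPa difference rested on the other control libraries. The study's tables that gave these genes symbols used the same nCPa libraries, so this direction is no independent evidence. The 28 co-varying genes had a median of -0.74 in the nCPa, 10 above and 18 below 0, and of -1.41 in the POAH, all 28 below 0. In the nCPa 6 of them had an unadjusted p under 0.05 in edgeR with EHC higher and 6 with EHC lower.

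The effect in the PVN differed from that in the nCPa in 26 genes (0.128%; 1836, or 9.02%, at an unadjusted p under 0.05) and from that in the POAH in 0 genes (501, or 2.46%; 0 called by DESeq2). Of the 26, 10 were among the 52 called in the PVN, 6 of the higher and 4 of the lower. The PVN values that chose the 52 also enter this difference between nuclei. The overlap was therefore favored by that choice and is no further evidence of an effect limited to the PVN. Among the 3 of the 26 with a symbol, SCG5 differed most, by 2.35 (SE 0.44, adjusted p = 0.075 from edgeR). In the nCPa it had 58.0, 43.5, 55.6 and 53.2 CPM in EHC, against 262.5, 196.0, 142.3 and 259.3 CPM in control. The others were PUDP, a pseudouridine phosphatase, at 1.38, and PSMA2, a proteasome subunit, at 1.19. All 26 calls were lost without any 1 of the 7 PVN libraries and with the chick as a block.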

How the data were processed

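RNA from punch biopsies was sequenced by the authors as stranded, ribosome-depleted libraries. They trimmed reads with Trimmomatic 0.39, aligned them with HISAT2, kept reads with 1 match with SAMtools 1.10, removed duplicates and counted reads per gene of Ensembl release 110 (GRCg7b) with featureCounts. Whether counting used strand is not given in the sources used here. The authors deposited raw read counts as 1 table of 30108 genes and 71 libraries.

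From these counts, genes with CPM over 1 in at least 4 of the 71 libraries were kept (20363). The 7 libraries were normalized by TMM and fitted with edgeR 4.0.16 (R 4.3.3; quasi-likelihood test, sex as covariate), with Benjamini-Hochberg adjustment over all genes and calls at 0.1. Printed CPM were scaled by TMM over all 71 libraries. Standard errors were derived from each gene's log2 fold change and quasi-likelihood F. For single values, a two-sided exact permutation test over the 35 arrangements of 3 and 4 libraries cannot go below p = 0.0571, so each gene whose groups do not overlap reaches that value and no less. No list was tested as a set. Alternatives were DESeq2 1.42.0, limma 3.58.1 (voom), other normalization, filters and models, and leaving out each library. The scripts were tested on simulated data. No 2 of the 7 libraries held the same counts.

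Symbols came from the study's tables by Ensembl ID (93 genes, all tested) and positions from RefSeq genes of the same symbol on GRCg7b (92 of 93). The comparison, the gene lists and the alternatives were chosen with earlier results of these data known. Genes named were: called genes with a symbol, called members of lists, mitochondrially encoded mRNAs, the study's RT-qPCR and PVN table genes, the 2 members of each list with the smallest unadjusted p, and the 2 higher and 2 lower called genes without a symbol that had the smallest adjusted p. A gene that this rule names is not reported here. The labels name biological replicates but no chick, so p-values measure the spread between these libraries. The authors' columns of comparisons were not used.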

Additional observations from a re-analysis of the deposited data

Results flagged for a closer look

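Among 40 values checked in the 4 control PVN libraries of hour 12, 3 had 1 library far from the rest, where chance gives about 1 in 20. VIPR1 was low in control replicate 1, with 8.55 CPM against 21.4 to 24.0 CPM in the others (gap over range 0.833). GFI1B was high in control replicate 3, with 2.29 CPM against 0.569 to 0.809 CPM (0.86), a library in which 1 count is worth 0.575 CPM. The summed level of the 19 higher genes was low in control replicate 1, with 165 CPM against 208 to 216 CPM (0.844).

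The EHC effect differed between the PVN and the nCPa at hour 12 for 26 genes called by edgeR. All 26 calls were lost without any 1 PVN library of hour 12, and with the chick as a block. SCG5 differed by 2.35 on the log2 scale (adjusted p = 0.075 from edgeR), with a log2 fold change of 0.34 (SE 0.14) in the PVN and -2.04 (SE 0.22) in the nCPa. Its symbol came from the study's nCPa table of that hour, and those nCPa values also enter this difference. ENSGALG00010018362 differed by 6.52 (adjusted p = 0.063 from edgeR), with 3.86 (SE 0.29) in the PVN and -2.67 (SE 0.96) in the nCPa. It was called in the PVN, and the PVN values behind that call also enter this difference. Between hour 12 and hour 2 in the PVN the effect differed for 1 gene, ENSGALG00010016851, by 4.29 (SE 0.70, adjusted p = 0.096 from edgeR). That call too was lost without any 1 PVN library of hour 12.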

How the results depend on the processing

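The count of 52 calls (19 higher, 33 lower) stayed within 1.5 times under DESeq2 size factors, limma-voom, the earlier quasi-likelihood method, no filter, filterByExpr, no sex term, calls shared with DESeq2 (also over a log2 fold change of 1) and an adjusted p of at most 0.05. It was 223 (82 higher, 141 lower) with DESeq2, 0 (0 and 0) with all 23 PVN libraries in 1 model, 2 (2 and 0) with all 23 libraries of hour 12 and 0 (0 and 0) with all 71 (1174 at an unadjusted p under 0.05). Added after seeing the data, it was 18 (1 lower) without the 28 co-varying genes and 31 (7 higher) in males only. Leaving out 1 library gave 11 to 73 calls, 3 to 26 higher and 8 to 51 lower, the 51 without control replicate 3. The causes were not tested.

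Differences from hour 0 numbered 0 with edgeR and 54 with DESeq2 (0 to 1 with 1 library left out, the 1 without control replicate 4), from hour 2 1 and 211 (0 to 0), from the nCPa 26 and 245 (0 to 0; 0 with the chick as a replicate block, inferred from runs of library numbers). DESeq2 called 25 genes at hour 0 and 28 at hour 2 in the PVN, 336 in the nCPa and 38 in the POAH. No paired analysis was possible because the replicate labels of EHC and control chicks mark groups and not pairs. Over 525 values of 35 named genes, 17 passed the threshold only under the alternative, 16 lost it and 12 changed sign, all 12 in genes called in neither fit. With 1 library left out, log2 fold changes ran from -0.40 to 0.23 for CAPRIN2, -0.47 to 0.038 for HIGD2A, -0.11 to 0.062 for HSPA9, -0.042 to 0.22 for AREL1 and -0.56 to 0.058 for VIPR1. In males only they were 0.23 for CAPRIN2, 0.036 for HIGD2A, 0.054 for HSPA9 and -0.042 for AREL1. In control replicate 3, the shallowest library, 1 count is 0.575 CPM, which limits low genes.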

Other observations

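The Ensembl IDs from ENSGALG00010003258 to ENSGALG00010003646, chosen after seeing the calls, hold 227 tested genes. Of these, 133 were below 0 and 94 above 0 in EHC PVN against control PVN at hour 12, 56 had an unadjusted p under 0.05 with EHC lower and 5 with EHC higher, and 26 were called, all lower (11.5% of the 227). Over all genes tested, 50.3% were below 0 and 0.162% were called lower. At an unadjusted p under 0.05, 5.34% of all genes were lower and 4.68% higher. Both ends of the stretch are called genes, so the share called was raised by how it was drawn. IDs carry no position. DNAJC15, which was not called, has an ID in this stretch and a RefSeq position on chromosome 1. Coordinates of the other genes were not analysed here.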
